A study of Mus musculus with 3 samples.

Results

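Frmd4a and Frmd4b are a pair of related mouse genes that encode scaffold proteins with a FERM domain, and each held a region with very high Nkx2.2 chromatin immunoprecipitation (ChIP) signal. Their members here are all regions of the deposited table that the authors assigned to either gene, 31 of 37271 regions, with 22 at Frmd4a and 9 at Frmd4b. The genes were chosen by the average signal of their strongest regions in these same libraries, so those values describe the choice and are not tested.

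Nkx2.2 was mapped by ChIP and sequencing in oligodendrocytes (OLs) and in oligodendrocyte progenitor cells (OPCs), both from C57BL/6 mice. The OLs were postmitotic cells obtained in culture from the OPCs when PDGF-AA was taken away and the thyroid hormone T3 (40 ng/mL) was added, a step of 48 h. The OPCs were dividing cells, isolated from dissociated cortex at postnatal day 7 with an antibody to PDGFRA and kept in serum-free medium with PDGF-AA (10 ng/mL), NT-3 (1 ng/mL) and CNTF (10 ng/mL). Each ChIP used a monoclonal antibody to Nkx2.2 and, per the labels, 1.5e7 cells. Each state had 1 library, so every difference below lies between 2 libraries, has no replicate check and carries no p-value. The number of animals is not given in the labels, an input library was not analysed here, and ChIP signal does not show whether the cells expressed the markers of their labelled type.

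FERM domains are folds that bind membrane lipids and the tails of membrane proteins, and they tie the cell membrane to the cytoskeleton and to signalling complexes. FRMD4A joins the polarity protein PAR3 to the exchange factor cytohesin-1, which loads the small GTPase ARF6, and FRMD4B, also called GRSP1, binds cytohesin-3. Nkx2.2 is a homeodomain transcription factor that represses many of its targets through Groucho corepressors, and in the oligodendrocyte lineage it is known for promoting the step from progenitor to differentiated cell.

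Nkx2.2 signal at both genes lay deep inside the gene and away from the start. All 31 regions were placed in the gene by the deposited table. None of the 31 carried a promoter feature or a CpG island feature, against 26.4% and 18.0% of all regions, and 2.12% and 1.26% of the regions placed in a gene 30 kb or more from its start. Each was assigned to no other gene. Regions of Frmd4a, on chromosome 2 of mm9, lay 34.7 to 443.8 kb from the deposited start, and those of Frmd4b, on chromosome 6, lay 40.6 to 302.1 kb from it. Frmd4a runs toward higher coordinates, and Frmd4b toward lower ones, as the deposited distances show.

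The first region of each gene thus lay far from its start. Among 1442 genes with at least 5 regions, the region nearest to the start lay 449 bp away at the median, and 184 of these genes (12.8%) had no region within 30 kb. The starts are those of the deposited table, whose distances imply 1 start for Frmd4a and 1 for Frmd4b. RefSeq lists 4 start sites for Frmd4a and 3 for Frmd4b on the later build GRCm38.p6, and whether a region lies at one of the other starts was not tested, because no annotation of mm9 was used here.

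In each gene a single region stood far above the rest, and it was the highest in both libraries. Signal is given as the authors' average per region, in the units of the deposited table, for which no scaling between libraries is stated. The strongest Frmd4a region, chr2:4327829-4328713, lay 254.4 kb into the gene and had an average signal of 26.4 in OL and 28.3 in OPC. The strongest Frmd4b region, chr6:97485919-97486504, lay 81.4 kb into the gene and had 29.1 in OL and 68.8 in OPC. As deposited, the Frmd4a region differed little between the libraries, and the Frmd4b region was higher in OPC. On the scale log2((OL + 1) / (OPC + 1)), used for all ratios here, these values give -0.10 for the Frmd4a region and -1.21 for the Frmd4b region. With the median of the regions called in both libraries set to 0 they were -0.34 and -1.46, and with the median of all regions set to 0 they were -0.84 and -1.95.

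**Figure D1:**
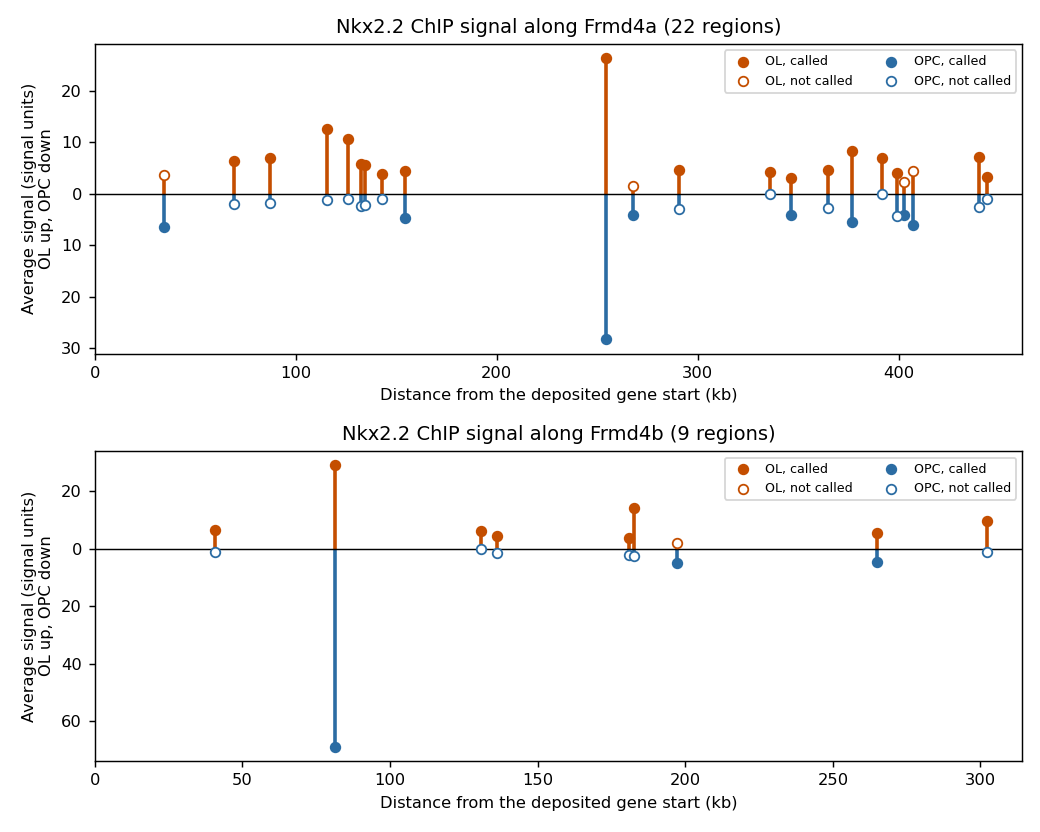
Average Nkx2.2 signal (vertical axis, signal units, OL upward and OPC downward) of each region against its distance from the deposited gene start (horizontal axis, kb), for Frmd4a above and Frmd4b below. Filled points are called in that library and open points are not. In each gene 1 region, at 254.4 kb and at 81.4 kb, exceeds all the others in both directions.

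The 2 strongest regions held different places among all 37271 regions. By average signal the Frmd4b region ranked 112th in OL and 1st in OPC. The Frmd4a region ranked 172nd in OL and 68th in OPC. Both regions ranked higher in OPC than in OL. The deposited highest signal inside the region gave the Frmd4b region 78 in OL and 205 in OPC, ranks of 192 and 2. It gave the Frmd4a region 100 in OL and 102 in OPC, ranks of 86 and 49. By this measure the Frmd4a region stood above the Frmd4b region in OL, while by average signal it stood below.

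In these regions the highest signal stood farther above the average than in a typical region. The highest signal was 3.79 times the average in OL and 3.60 times in OPC at the Frmd4a region, and 2.68 times in OL and 2.98 times in OPC at the Frmd4b region. Over all regions, called or not in the library, the median of this quotient was 2.05 in OL and 1.80 in OPC. In OL the Frmd4b regions at 40.6 and 302.1 kb had 2.87 and 2.74, above its strongest region, and its other regions lay lower. In OPC no other Frmd4b region exceeded the strongest. Both strongest regions were chosen for their average signal, so these quotients are a description. The strongest regions were 884 bp long at Frmd4a and 585 bp at Frmd4b, against a median of 574 bp over all regions.

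The gap below the strongest region was wider in OPC. At Frmd4a the next-highest value was 12.5 in OL and 6.50 in OPC, so the strongest exceeded it 2.11 times in OL and 4.36 times in OPC. At Frmd4b it was 14.2 in OL and 4.92 in OPC, which the strongest exceeded 2.06 times in OL and 14.0 times in OPC. Among the 1442 genes with at least 5 regions, the median of this quotient was 1.29 in OL and 1.34 in OPC. Frmd4b ranked 160th in OL and 1st in OPC on it, and Frmd4a ranked 147th in OL and 29th in OPC. The strongest region was also the same in OL and OPC in 446 of these genes (30.9%). These ranks describe genes chosen for their high regions.

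**Figure D2:**
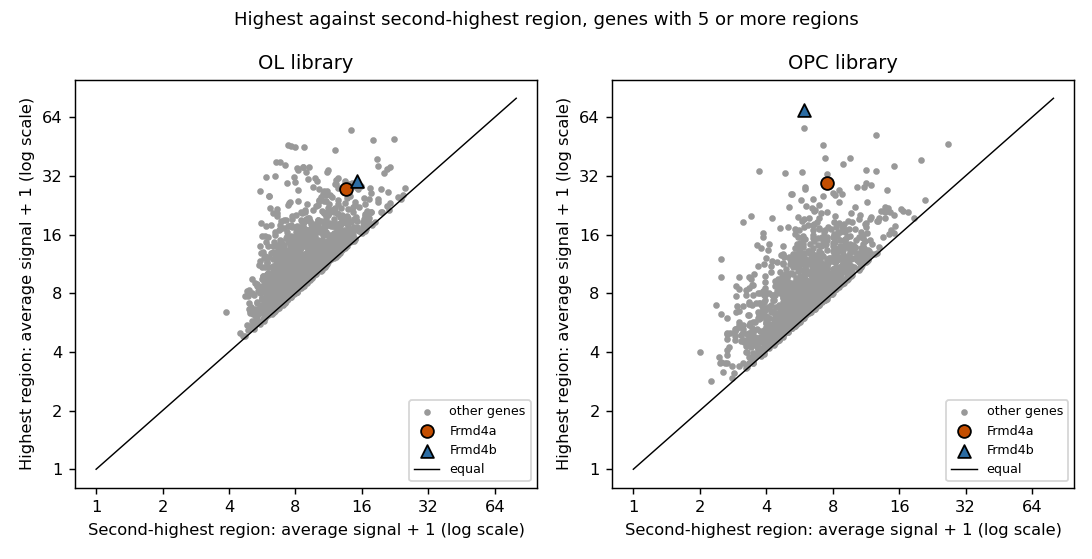
Average signal of the highest region (vertical axis, signal plus 1, log scale) against that of the next-highest region (horizontal axis, same scale) for genes with at least 5 regions, in OL (left) and OPC (right). Frmd4b, with 68.8 against 4.92, lies farthest above the line of equality in OPC, while in OL both genes lie inside the spread of the other genes.

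More regions were called in OL than in OPC at both genes, in shares close to those of the whole table. Frmd4a had 18 regions called in OL and 8 in OPC, with 4 called in both. These are 81.8% in OL (95% exact Clopper-Pearson interval 59.7 to 94.8%, which covers counting error over regions and nothing else) and 36.4% in OPC (17.2 to 59.3%). Over all regions, 85.3% were called in OL, 38.6% in OPC and 23.8% in both. Frmd4b had 8 of 9 called in OL (88.9%, 51.8 to 99.7%), 3 in OPC (33.3%, 7.49 to 70.1%) and 2 in both. Regions in a gene 30 kb or more from its start, which are more like those of the 2 genes in position, had close shares, with 84.4% called in OL, 37.5% in OPC and 21.9% in both. Calls in OPC without OL were made at 4 Frmd4a regions and 1 Frmd4b region, against 14.7% of all regions and 15.6% of those far from a start.

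The number of regions set Frmd4a apart from most genes. With 22 regions it ranked 15th of 14473 gene names, and Frmd4b with 9 ranked 294th, against a median of 2. Neither rank is matched for gene length. The regions of Frmd4a spread over 409 kb from the first to the last, or 5.37 regions per 100 kb, and those of Frmd4b over 262 kb, or 3.43 per 100 kb. Neighbouring regions were 11.1 kb apart at the median in Frmd4a and 38.3 kb apart in Frmd4b.

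Log2 ratios were above 0 at 14 of the 22 Frmd4a regions and 7 of the 9 Frmd4b regions, against 77.4% of all regions and 76.5% of those in a gene 30 kb or more from its start. OPC signal was listed at 0 at 2 regions of Frmd4a and 1 of Frmd4b, against 6.04% of all regions and 7.89% of the far ones. With the median of all regions set to 0, ratios above 0 numbered 11 at Frmd4a and 5 at Frmd4b, and with the highest signal in place of the average they numbered 17 and 7. In the first of these settings about as many of all regions lie above 0 as below it, by construction. The share of all regions is not given for the highest signal. The median ratio was 0.81 over the 22 Frmd4a regions and 1.24 over the 9 Frmd4b regions, against 0.74 over all regions. At Frmd4a 11 regions had a ratio of 1 or more and 1 had -1 or less, and at Frmd4b the numbers were 5 and 1. Together these are 16 of 31 regions at 1 or more, where all regions have 37.5%, and 2 of 31 at -1 or less, where all regions have 7.03%. Among the regions in a gene 30 kb or more from its start the shares were 43.8% and 7.9%. With the median of all regions set to 0, a shift of 0.74, the counts were 8 regions at 1 or more and 7 at -1 or less. The shares above are for ratios without this shift, so these counts cannot be set against them.

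**Figure D3:**
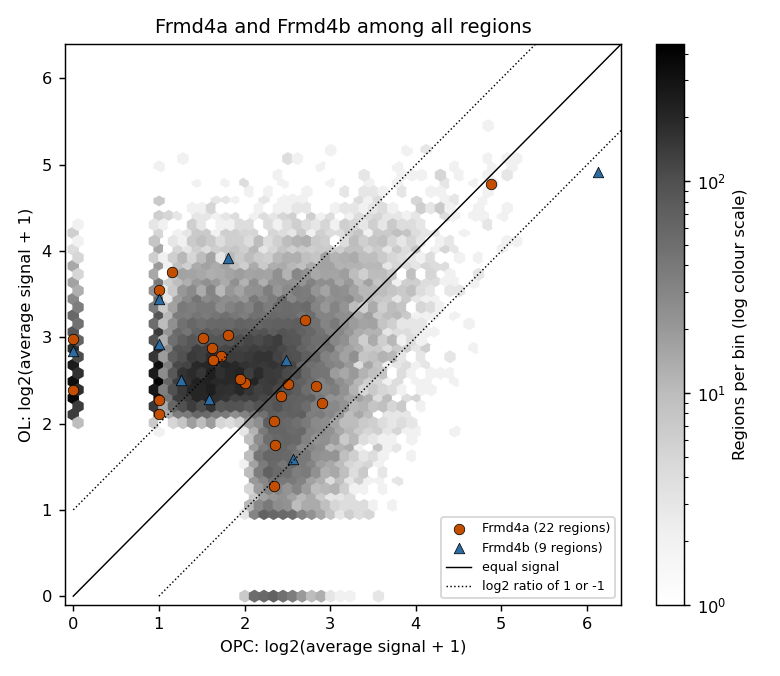
OL signal (vertical axis) against OPC signal (horizontal axis), each as log2 of the average signal plus 1, for all regions (grey bins, shaded by number on a log scale), the 22 Frmd4a regions (circles) and the 9 Frmd4b regions (triangles). Most regions of both genes lie among the bulk above the line of equal signal, while the strongest Frmd4b region lies alone at the right, with 29.1 in OL and 68.8 in OPC.

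Along Frmd4a, the first region stood apart from its neighbours. The region 34.7 kb from the start, chr2:4108407-4108922, was called in OPC and not in OL. Its signal was 3.73 in OL and 6.50 in OPC, a ratio of -0.66. That OPC value was the next-highest of the gene in this library. The nearest region upstream of the gene start, 16.6 kb away and assigned to 1700080N15Rik, had 6.39 in OL and 1.36 in OPC, so it differed in the opposite direction.

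Next came 7 neighbouring regions, from 69.5 to 142.7 kb, that were all called in OL and not in OPC. Their average signal ran from 3.83 to 12.5 in OL and from 1.00 to 2.31 in OPC, and each had a ratio of 1 or more. Calls in OL without OPC make up 61.4% of all regions and 62.5% of those in a gene 30 kb or more from its start. Ratios of 1 or more make up 37.5% and 43.8% of these sets. The run was marked out after the values were seen. No average in the table lies between 0 and 1, so 1.00 is the lowest value above 0 in it. The strongest of the 7, at 115.7 kb (chr2:4189242-4189958), had 12.5 in OL and 1.22 in OPC, a ratio of 2.60. Its neighbour at 126.1 kb (chr2:4199595-4200510) had 10.7 in OL and 1.00 in OPC, a ratio of 2.55. These are the highest OL values of the gene after the strongest region.

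The other 5 of this run were weaker. The regions at 69.5 and 87.2 kb had 6.33 and 6.94 in OL and 2.08 and 1.87 in OPC. Those at 132.3 and 134.7 kb, 1.41 kb apart, had 5.86 and 5.65 in OL and 2.31 and 2.11 in OPC, and the second of these was the longest of the gene at 1302 bp. The region at 142.7 kb had 3.83 in OL and 1.00 in OPC. After them, a region at 154.3 kb was called in both libraries, with 4.50 in OL and 4.71 in OPC.

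The widest stretch without a region, 99.2 kb, followed. It divides the Frmd4a regions into 9 before it and 13 after it, a division made after the values were seen. Before the stretch, OL calls were made at 8 of the 9 regions and OPC calls at 2, and the median ratio was 1.25. After it, OL calls were made at 10 of the 13 and OPC calls at 6, and the median ratio was 0.47. The whole table has OL calls at 85.3% of regions, OPC calls at 38.6% and a median ratio of 0.74, and the difference between the blocks was not tested. Ratios below 0 were seen at 2 of the 9 regions and at 6 of the 13. The strongest region was the first after the stretch.

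Between 268.0 and 346.6 kb the library with the higher signal was not the same throughout. The region at 268.0 kb (chr2:4341674-4342065), called in OPC and not in OL, had 1.43 in OL and 4.08 in OPC, the lowest ratio of the gene at -1.07. The regions at 290.5 and 336.1 kb were called in OL and not in OPC. They had 4.54 and 4.23 in OL, and in OPC 3.00 at the first while the second was listed at 0. The region at 346.6 kb, called in both, had 3.10 in OL and 4.09 in OPC.

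The last 8 regions of Frmd4a, from 364.9 kb on, were mixed as well. The regions at 364.9 and 376.6 kb had 4.71 and 8.23 in OL, and 2.86 and 5.51 in OPC, and the second of them was called in both libraries. At 391.7 kb (chr2:4465451-4465802) a region had 6.90 in OL and was listed at 0 in OPC. Its ratio of 2.98, the highest of the gene, rests on the added unit of signal. The next region, at 399.3 kb, was called in OL and not in OPC although its signal was 4.0 in OL and 4.38 in OPC. A call therefore does not always mark the library with the higher average. The regions at 402.3 and 406.9 kb were called in OPC and not in OL, with 2.37 and 4.41 in OL and 4.13 and 6.12 in OPC. The last pair, at 440.1 and 443.8 kb, was called in OL and not in OPC, with 7.13 and 3.33 in OL and 2.50 and 1.00 in OPC.

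Along Frmd4b, the strongest region was flanked by regions with the opposite difference. The first region of the gene, at 40.6 kb (chr6:97526630-97527244), had 6.61 in OL and 1.00 in OPC, a ratio of 1.93. The next region beyond the strongest, at 130.7 kb (chr6:97436673-97437073), had 6.17 in OL and was listed at 0 in OPC. Both were called in OL and not in OPC. The strongest region was thus the sole Frmd4b region called in OPC among the first 6, a division made after the values were seen. Over the whole gene 3 of 9 regions were called in OPC, close to the 38.6% of all regions.

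The regions from 130.7 to 182.8 kb formed a run of 4 called in OL and not in OPC, as were 61.4% of all regions. This run too was marked out after the values were seen. At 136.3 kb the signal was 4.67 in OL and 1.4 in OPC. A pair 1.06 kb apart followed, and its members differed in strength. The region at 181.0 kb had 3.87 in OL and 2.00 in OPC, while the one at 182.8 kb (chr6:97384385-97385239) had 14.2 in OL and 2.50 in OPC, a ratio of 2.11 and the next-highest OL value of the gene.

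The far part of Frmd4b held the other OPC calls. The region at 197.2 kb (chr6:97370140-97370523), called in OPC and not in OL, had 2.00 in OL and 4.92 in OPC, a ratio of -0.98. The region at 265.0 kb (chr6:97302174-97303031), called in both, had 5.67 in OL and 4.58 in OPC, a ratio of 0.26. The last region, at 302.1 kb (chr6:97265110-97265797), had 9.86 in OL and 1.00 in OPC, a ratio of 2.44, and was called in OL and not in OPC. The nearest region upstream of the Frmd4b start lay 189 kb away with no assigned gene, and had 7.50 in OL and 4.27 in OPC.

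Without its strongest region, Frmd4b had OPC signal near that of regions called in OL and not in OPC. Its other 8 regions had 2.00 to 14.2 in OL, with a median of 5.92, and 0 to 4.92 in OPC, with a median of 1.70. Of these 8, 6 were called in OL and not in OPC, and over all regions so called the OPC median was 2.0. The medians over all regions were 5.0 in OL and 3.0 in OPC. The median ratio of the 8 was 1.58, against 1.24 with the strongest region included. The strongest region made up 35.5% of the summed average signal of the gene's regions in OL and 79.8% in OPC. At Frmd4a, which has more regions, it made up 18.7% in OL and 31.9% in OPC.

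The genes most like each of the 2 were found among 292 other genes with at least 10 regions. Likeness was the Euclidean distance over 3 measures, the log2 number of regions and the mean log2 signal in each library. Closest to Frmd4a were Dnm3, a dynamin gene (21 regions), Cadm2, an adhesion gene (23), Arid1b, a chromatin remodeller gene (21), Unc5c, a netrin receptor gene (21), and Kirrel3, an adhesion gene (21), at distances of 0.07 to 0.15. Their highest values, 10.1, 12.3, 19.5, 15.9 and 14.3 in OL and 7.57, 16.5, 6.39, 8.96 and 10.2 in OPC, were all below those of Frmd4a, 26.4 and 28.3. Their regions nearest to the start lay 6 to 3536 bp from it, against 34746 bp in Frmd4a. The number of regions and mean signal chose these 5 genes, and the strongest region chose Frmd4a, so these values are a description.

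Frmd4b had 9 regions and so lay just outside the range of genes searched, and its distances were larger, 0.18 to 0.27. Closest were Lass6, a ceramide synthase gene, Adamts12, a metalloprotease gene, Lpp, a LIM domain gene, Dpp6, a potassium channel subunit gene, and Gse1, with 10 regions each. Their highest OPC values lay between 8.00 and 18.7, below the 68.8 of Frmd4b. In OL their highest values, between 13.2 and 22.9, were also below its 29.1. Their regions nearest to the start lay 443 to 174348 bp from it, and those of Adamts12 (50023 bp) and Dpp6 (174348 bp) lay farther than the 40638 bp of Frmd4b. Frmd4b too was chosen by its strongest region, and its 68.8 is the highest OPC average of all 37271 regions. Every other gene had to lie below it in OPC, so the comparisons of highest values are a description.

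The other genes of FERM proteins had regions in most cases, with more signal in OL at the majority. Each gene is given by its strongest region, taken over both libraries. Regions were listed for 40 of 46 such genes. An OL call was present at 39 of them and an OPC call at 25, against 94.8% and 57.3% of all genes with a region. These shares are not matched for the number of regions, which was 2.5 at the median here and 2 over all genes. The strongest region had a ratio of 1 or more in 16 genes, against 34.7% of all genes with a region, and of -1 or less in 4, against 4.19%. The median ratio of the 40 genes was 0.80, against 0.73 over all genes with a region.

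Among FERM genes, Ptpn21 and Epb41l4a had higher values than Frmd4a and Frmd4b in OL, and none did in OPC. Frmd4a and Frmd4b were chosen by their strongest regions, so this order is a description. Ptpn21, a tyrosine phosphatase gene, had 33.3 in OL and 5.04 in OPC. Epb41l4a, a gene of the protein 4.1 family, had 30.3 in OL and 1.00 in OPC, and none of its 9 regions was called in OPC. Frmpd3 had 26.3 in OL and 3.08 in OPC, and Frmd8 had 20.95 in OL and 4.53 in OPC. Epb41, the gene of the red cell membrane skeleton protein 4.1, had 18.1 in OL and 3.88 in OPC. At their strongest regions all 5 of these genes had more signal in OL, unlike Frmd4a and Frmd4b.

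Further FERM genes with at least 5 regions and a ratio beyond 1 in size were mostly higher in OL as well. Tln2, a talin gene that links integrins to actin, reached 13.9 in OL and 2.06 in OPC at the strongest of its 12 regions. Nf2, the gene of the tumour suppressor merlin, had 11.3 in OL and 1.6 in OPC. Of its 5 regions 4 carried an OL call and 3 an OPC call, and the median ratio was 0.31. Its highest OPC value, at another region, was 8.48. Epb41l1, Epb41l2, Epb41l4b and Farp2 had 9.95, 9.66, 6.67 and 7.33 in OL, and 1.79, 1.87, 1.00 and 1.54 in OPC. In the opposite direction, the strongest region of Frmd5 had 4.07 in OL and 9.97 in OPC, while all 5 regions of the gene carried an OL call and 1 an OPC call. Jak1, a cytokine receptor kinase gene with 4 regions, named after its values were seen, had 7.27 in OL and 17.3 in OPC, the highest OPC value of the list.

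**Figure D4:**
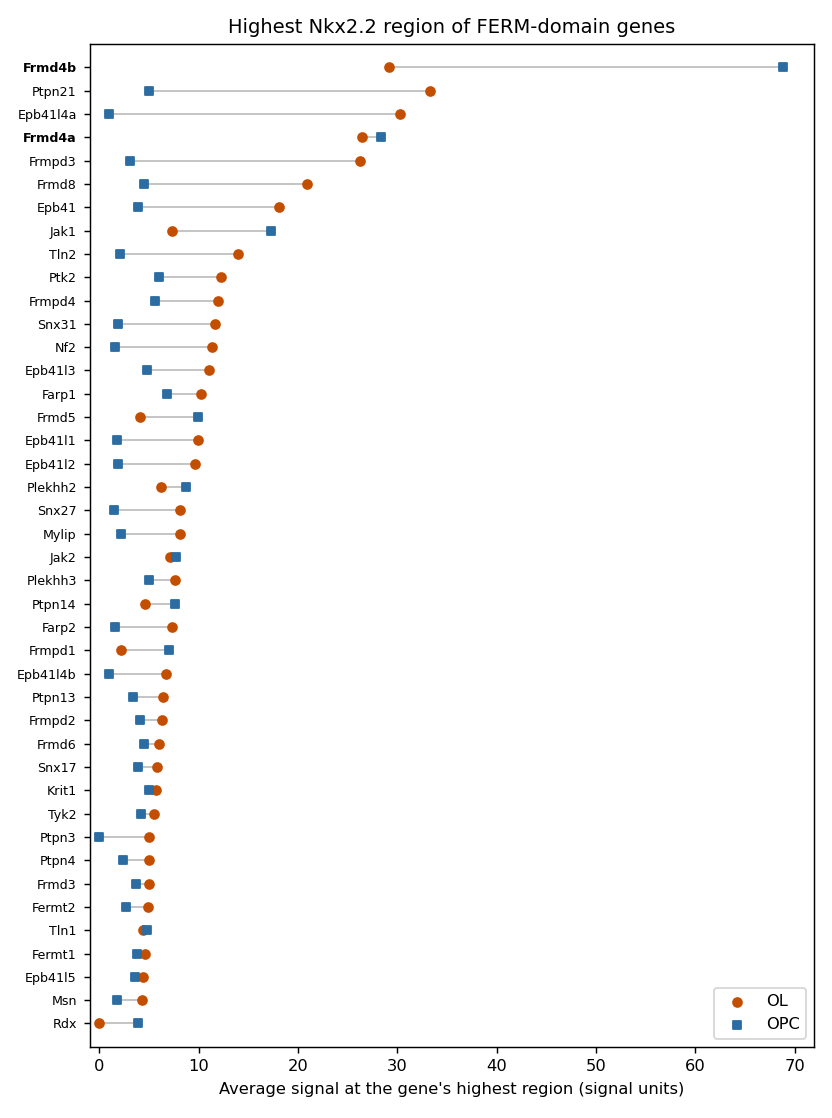
Average signal in OL (circles) and OPC (squares) at the highest region of Frmd4a, Frmd4b and the 40 other FERM genes with a region (horizontal axis, signal units), ordered by the higher of the 2 values. Frmd4b stands at the top through its OPC value of 68.8, and Frmd4a is the sole gene of the upper 7 with values within 2 units of each other, 26.4 and 28.3.

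Genes of the polarity complex and of ARF exchange, where the FRMD4 proteins have their known partners, had regions at 23 of 24. An OL call was present at all 23 and an OPC call at 20, against 94.8% and 57.3% of all genes with a region. These shares are not matched for the number of regions, which was 3 at the median here and 2 over all genes. A gene with more regions has more places for a call. A ratio of 1 or more was found in 6 genes, against 34.7% of all genes with a region, and of -1 or less in 1, against 4.19%. The median ratio was 0.64, against 0.73 over all genes with a region. Pard3, the gene of PAR3, reached 16.9 in OL and 12.7 in OPC at its strongest region. All 9 of its regions carried an OL call, and 1 carried an OPC call. Its relative Pard3b had 1.73 in OL and 13.0 in OPC at the strongest of 10 regions, a ratio of -2.36, but a mean ratio of 1.09 over all of them.

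The genes of both cytohesin proteins that the FRMD4 proteins bind had regions. Cyth3, listed as Pscd3, reached 17.0 in OL and 12.5 in OPC at its strongest region. Of its 4 regions 3 carried an OL call and 2 an OPC call, with a mean ratio of -0.46 and a median of 0.06. Cyth1, listed as Pscd1, had 9.60 in OL and 1.25 in OPC at the strongest of 11 regions, of which all carried an OL call and 2 an OPC call. Iqsec1, another ARF exchange factor gene, reached 16.2 in OL and 2.00 in OPC, and none of its regions was called in OPC. Psd3, also an exchange factor gene, reached 10.1 in OL and 3.50 in OPC. For Ctnna1, the gene of alpha-catenin, the values were 11.5 in OL and 6.33 in OPC. No gene of this list reached the OL or OPC value of the strongest Frmd4a region, by which Frmd4a was chosen.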

How the data were processed

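Nkx2.2 ChIP libraries of OLs and OPCs were compared, with 1 library per state. Per the submitters' processing notes, BWA, MACS 1.4.2 and the build mm9 were used. The deposited table gives, per the file headers, the average and highest signal and a call for each library in each region that the authors merged from called intervals. The calling threshold, how the input entered and any scaling of signal were not given in the sources used here, and depth is unknown. Calls were made per library. Coordinates are as deposited, counted from 0 or 1, which is not stated.

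Ratios are log2((OL + 1) / (OPC + 1)) of average signal, and the added 1 signal unit makes those of weak regions smaller. No filter was used and, without replicates, no test. The ratio formula was tested on simulated data without noise, where it must return the set ratios. That checks the code and not the results. Alternatives changed the pseudocount, signal measure, scaling, calls and regions. Regions described in full were the 3 highest per library, the nearest to the start and the 2 largest and smallest ratios of each gene, and listed genes were the 5 highest of each list and those with at least 5 regions and a ratio beyond 1 in size. Rdx, Frmpd1 and Jak1, each with fewer than 5 regions, were the other FERM genes at -1 or less, and Jak1 falls outside the rule. The members and gene lists were chosen with earlier results of these data known. Older symbols were matched through the RefSeq table of GRCm38.p6. Python 3.11.15, pandas 2.3.3, NumPy 2.4.6 and SciPy 1.17.1 were used.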

Additional observations from a re-analysis of the deposited data

How the results depend on the processing

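Median ratios stayed above 0 at both genes under every alternative tried, in the range 0.074 to 1.36 for Frmd4a and 0.50 to 2.00 for Frmd4b. A median above 0 is not particular to these genes, since that of all regions was 0.74 on the main scale. With all regions set to 0 that median is 0 by construction, and the 0.074 of Frmd4a lay close to it. The median of all regions is not given for the other pseudocounts, the highest signal or the signal filter. The Frmd4a and Frmd4b medians were 0.91 and 1.44 with a pseudocount of 0.5, 0.40 and 0.59 with 5, and 1.36 and 2.00 with the highest signal in place of the average. They were 0.57 and 0.99 with the shared regions set to 0, and 0.074 and 0.50 with all regions set to 0. With the regions at or above the median mean signal of 4.06 they were 0.78 and 1.19, and without the strongest region 1.05 and 1.58. The 16 regions at 1 or more became 6 with a pseudocount of 5, 8 with all regions at 0 and 8 with the signal filter. The 2 regions at -1 or less became 1, 7 and 1 under these settings, and 1 without the strongest regions. Shares of all regions at these limits are not given under the changed settings. The sign of the ratio was kept at 13 of 14 regions described in full with all regions at 0, and at all 14 under the other 4 scale settings. The exception was the Frmd4b region at 265.0 kb, with -0.48. A stricter count kept a call where its signal reached the median of the library's calls (5.46 in OL, 5.12 in OPC). It left 10 Frmd4a calls in OL, 4 in OPC and 2 in both, and at Frmd4b 6 in OL, 1 in OPC and 1 in both. A cut at the median drops the weaker calls of each library by construction, so such losses are not particular to these genes. The signal filter left 10 Frmd4a calls in OL and 5 in OPC, and 4 Frmd4b calls in OL. Without its strongest region Frmd4b had 1 region called in both. Using regions in the gene alone changed nothing, since all 31 lie there. No paired analysis was possible because each state has 1 library. The depth of the libraries is unknown, so no count or limit could be set for values listed at 0.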
